A study of Homo sapiens with 9 samples.

Results

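The 81 genes described here code for the proteins of the cytosolic ribosome. They are the protein-coding genes whose symbol is RPL or RPS followed by digits and at most one letter, with RPLP0, RPLP1, RPLP2 and RPSA added, out of 58243 gene identifiers counted in every library. Of the 81, 49 belong to the large (60S) subunit and 32 to the small (40S) subunit, and they lie on 21 chromosomes. RPL13P and RPL39P match the pattern of letters but are processed pseudogenes and were left out, as were the RPS6K kinases. The cells were DOHH2, an established line of human B lymphoma cells that derives from a transformed follicular lymphoma. A first group of 3 libraries (day 0) was made from the culture on the day of grafting. The other groups, of 3 libraries each, were made from human cells taken out of the femurs of immunodeficient RAGγc mice 19 or 40 days after they had received DOHH2 cells. The femur cells had been flushed, digested with enzymes, freed of CD45 and Ter119 positive cells with beads, and sorted on human CD20. The culture cells were not taken from bone, so growth in the mouse and this handling cannot be told apart. All 3 groups are 1 cell line, and the labels name no animals or cultures, so the p-values measure only the spread between these libraries, which may be technical.

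Each ribosome carries a copy of nearly every one of these proteins, bound to ribosomal RNA. The large subunit carries the peptidyl transferase centre, the tunnel through which the new protein leaves and the stalk that recruits elongation factors, and the small subunit decodes the messenger RNA. Ribosomal protein mRNAs are among the most abundant in a growing cell, and their synthesis and translation are known to follow growth signals such as MYC and mTOR. Nearly all of them start with a C followed by a run of pyrimidines, the 5′ terminal oligopyrimidine (TOP) tract, through which mTOR and the RNA-binding protein LARP1 control their translation. Bulk counts give the share of a library taken by each mRNA, so fewer cells with an mRNA, less of it per cell and more of other mRNAs cannot be told apart, and neither translation nor protein was measured.

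The starts of the members were read from the RefSeq promoter table (GRCh38.p14), which held 64 of the 81. A TOP tract was taken as a C at the annotated start followed by at least 4 more pyrimidines (C or T), on the strand of the gene, at any of the starts listed for it. By this rule 46 of the 64 members (71.9%) had a tract, against 5.14% of all 27305 genes in the table. When the C could lie within 10 bases of the start on either side, 57 of the 64 (89.1%) and 38.4% of all genes had one. A longer tract, a C and at least 6 more pyrimidines at the start, was held by 36 members (56.2%) and 2.68% of all genes. The starts below are those of members on which the results turn. Each shows 12 bases before the annotated start and 18 from it, written 5′ to 3′, with the tract in capitals. The tract of RPL39, 19 bases long, runs past the end of its window. RPS27, RPS3A, RPLP0, RPLP2, RPS6 and RPL39 fell in the femur cells and RPLP1 and RPL10 were not called, and all of these have a tract at the start. RPS28 has its tract 1 base after the start, and RPL27 and RPS27L, which fell most, have none within 10 bases. The window of RPL27 ends in a run of pyrimidines led by a C that begins just beyond these 10 bases, so it was not counted. RPL10 has several listed starts, and the one with a tract at the start is shown. Each line gives the Ensembl identifier used in the files.
RPS27 (ENSG00000177954, chr1:153990750-153990779, plus strand): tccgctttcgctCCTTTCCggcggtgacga
RPS3A (ENSG00000145425, chr4:151099616-151099645, plus strand): ctcccacttccgCCCTTTTggctctctgac
RPLP0 (ENSG00000089157, chr12:120201094-120201123, minus strand): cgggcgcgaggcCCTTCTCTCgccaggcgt
RPLP2 (ENSG00000177600, chr11:809955-809984, plus strand): cgtcggcgccttCCTTTTCCTCCCTgtcgc
RPS6 (ENSG00000137154, chr9:19380219-19380248, minus strand): cggaagttggccCTCTTTTCCgtggcgcct
RPL39 (ENSG00000198918, chrX:119791613-119791642, minus strand): ttccgccagcttCCCTCCTCTTCCTTTCTC
RPLP1 (ENSG00000137818, chr15:69452806-69452835, plus strand): taggcgcgagagCCCCTTTCCTCagctgcc
RPL10 (ENSG00000147403, chrX:154398365-154398394, plus strand): gcggaggagcgcCTCTTTCCCTTCggtgtg
RPS28 (ENSG00000233927, chr19:8321484-8321513, plus strand): ccgaagcacgtgaCTCCTCTCCgccagacc
RPL27 (ENSG00000131469, chr17:42998407-42998436, plus strand): gggtgaaaggttagcggaagtgtccttctt
RPS27L (ENSG00000185088, chr15:63157460-63157489, minus strand): ttgatgccgagcgcagatcgcttgcagctt

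The libraries held between 21071239 and 29456271 counts. Members took 10.1%, 13.0% and 10.3% of the counts in the culture libraries, 8.76%, 8.35% and 8.51% at day 19, and 8.51%, 9.29% and 8.82% at day 40. Every femur library lay below every culture library. The mean was 11.2% ± 1.61 (SD, n = 3) in culture, 8.54% ± 0.208 at day 19 and 8.87% ± 0.392 at day 40, and the exact two-sided permutation p was 0.1 for either femur group against culture, the smallest that 3 against 3 libraries can give. Between the femur groups the exact permutation p was 0.2. Culture replicate 2 stood apart: it was the highest of the 9 libraries for 75 of the 79 members tested. Without this library the differences in share from culture were smaller, -1.69 in place of -2.62 percentage points at day 19 and -1.36 in place of -2.29 at day 40. The 1145 pseudogenes named after members held 0.147% of culture counts, 0.113% of those at day 19 and 0.116% of those at day 40. The 37 genes of the mitochondrial genome held 5.57% ± 0.653 (SD, n = 3) of culture counts, 8.07% ± 0.566 of the day 19 counts and 8.28% ± 0.389 of the day 40 counts. With mitochondrial counts taken out of the total, members held 11.8% in culture, 9.29% at day 19 and 9.67% at day 40.

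**Figure D1:**
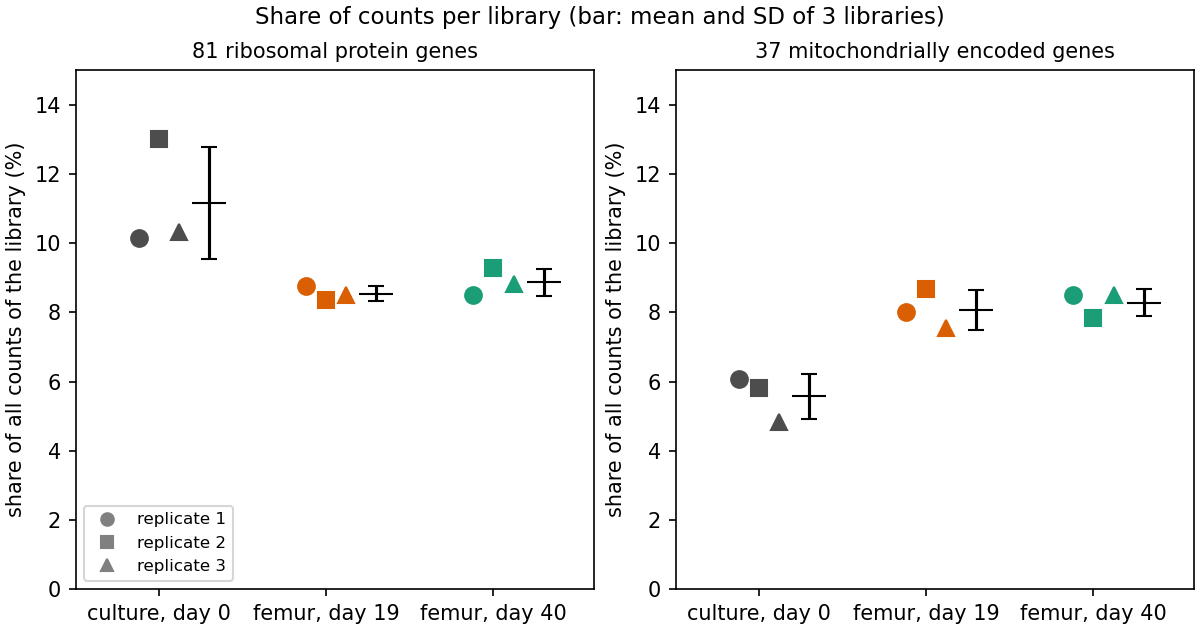
Share of each library's counts, in percent, that fell on the 81 ribosomal protein genes (left) and on the 37 mitochondrially encoded genes (right), with 1 point per library and bars for the mean and SD of 3 libraries. Culture replicate 2 is the highest point on the left at 13.0%, and all 6 femur libraries lie between 8.35% and 9.29%.

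The labelled cell type was checked against 6 B-cell markers, which were all present: their summed level was 3500 to 4455 CPM (counts per 1000000, with TMM-scaled library sizes) in culture, 2274 to 2485 CPM at day 19 and 2688 to 2902 CPM at day 40. CD22, CD79A, MS4A1 (which codes for CD20, the marker of the sort) and CD79B were lower at both days, with log2 fold changes at day 19 of -2.24, -0.96, -1.38 and -0.44. PAX5 was higher at both days (0.71 at day 19). Of the 6 markers, 4 were called lower and 1 higher at day 19, and 4 lower and 2 higher at day 40. Markers of T cells, NK cells, myeloid, erythroid, stromal and endothelial cells each summed to at most 7.60 CPM in any library, the highest being the endothelial list in culture. S100A8 and S100A9, HBB and HBA2, COL1A2, COL3A1, LUM and CXCL12, and CDH5, KDR and TEK had 0 counts in all 9 libraries, which allows up to 3 counts in each.

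In culture, 74 members were expressed at 100 CPM or more, with means between 321 CPM (RPS29) and 4487 CPM (RPL3) and a median of 1397 CPM. Per kilobase of coding sequence, which leaves out the UTRs, these 74 lay between 1124 (RPL26) and 7758 CPM (RPL41, whose coding sequence is among the shortest), with a median of 2773 and the middle 50% between 2212 and 3757. The other 7 members were low. RPL10L, a copy of RPL10 known from the testis, had 0 counts in all 9 libraries, which allows up to 3 counts in each. RPL3L, a copy of RPL3 known from muscle, had 7, 7 and 5 counts in culture, 1, 1 and 3 at day 19, and 2, 4 and 4 at day 40, and neither gene passed the filter on low counts. RPL39L and RPS27L, copies of RPL39 and RPS27, had means of 23.4 and 51.2 CPM in culture. RPS10, RPL17 and RPL36A had 3.76, 39.7 and 10.8 CPM. These last genes each share exons on the same strand with an annotated readthrough gene (RPS10-NUDT3, RPL17-C18orf32 and RPL36A-HNRNPH2), whose own mean was at most 0.955 CPM in any group. How reads in shared exons were assigned is not given in the sources used here, so the levels of these genes are uncertain. Of the 81 members, 76 have pseudogenes in the annotation and 50 have exons that overlap exons of another gene on either strand, so reads may be split or lost between copies. The 29 tested members with no such overlap gave a median log2 fold change of -0.51 at day 19, against -0.48 for the 50 with one.

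At day 19, 72 of the 79 members tested were lower than in culture, while 26.5% of all 15163 genes tested were called lower and 26.3% higher (edgeR quasi-likelihood test, adjusted p under 0.05). The median of the 79 log2 fold changes was -0.49, a level 28.6% below culture, and the median over all genes was 0.01. No member was called higher. RPL36A was the only member higher at an unadjusted p under 0.05, and it was called higher with limma voom and with no filter on low counts but not with DESeq2. In 72 members all 3 libraries of day 19 lay below all 3 of culture, against 31.0% of all genes, and in none did all 3 lie above, against 30.6%. Both subunits took part: 43 of 47 members of the large subunit and 29 of 32 of the small subunit were lower, each with a median of -0.49. With culture replicate 2 left out, 67 members were lower, against 25.2% of all genes, and the median was -0.34. The 7 members not called were RPL10, RPL36A, RPL39L, RPLP1, RPS10, RPS28 and RPS29.

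At day 40, 68 members were lower than in culture, against 23.3% of all genes, and none was called higher with edgeR, DESeq2 or limma voom or at an unadjusted p under 0.05. With no filter on low counts 1 member, RPL36A, was called higher. The median log2 fold change was -0.42, a level 25.4% below culture, against 0.01 for all genes, and the libraries did not overlap in 66 members (27.4% of all genes). The medians of the large and small subunits were -0.43 and -0.42. All 68 had also been lower at day 19, a comparison that shares the culture libraries, and RPL17, RPL19 and RPS20 were among those called at day 19 alone. With culture replicate 2 absent, 59 members were lower, against 21.9% of all genes, the median was -0.28 and RPL39L was called higher (0.29, adjusted p 0.0175). Scaling by total counts alone left 57 members lower at day 40, with 2654 of all genes lower and 4146 higher in place of 3538 and 3527.

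**Figure D2:**
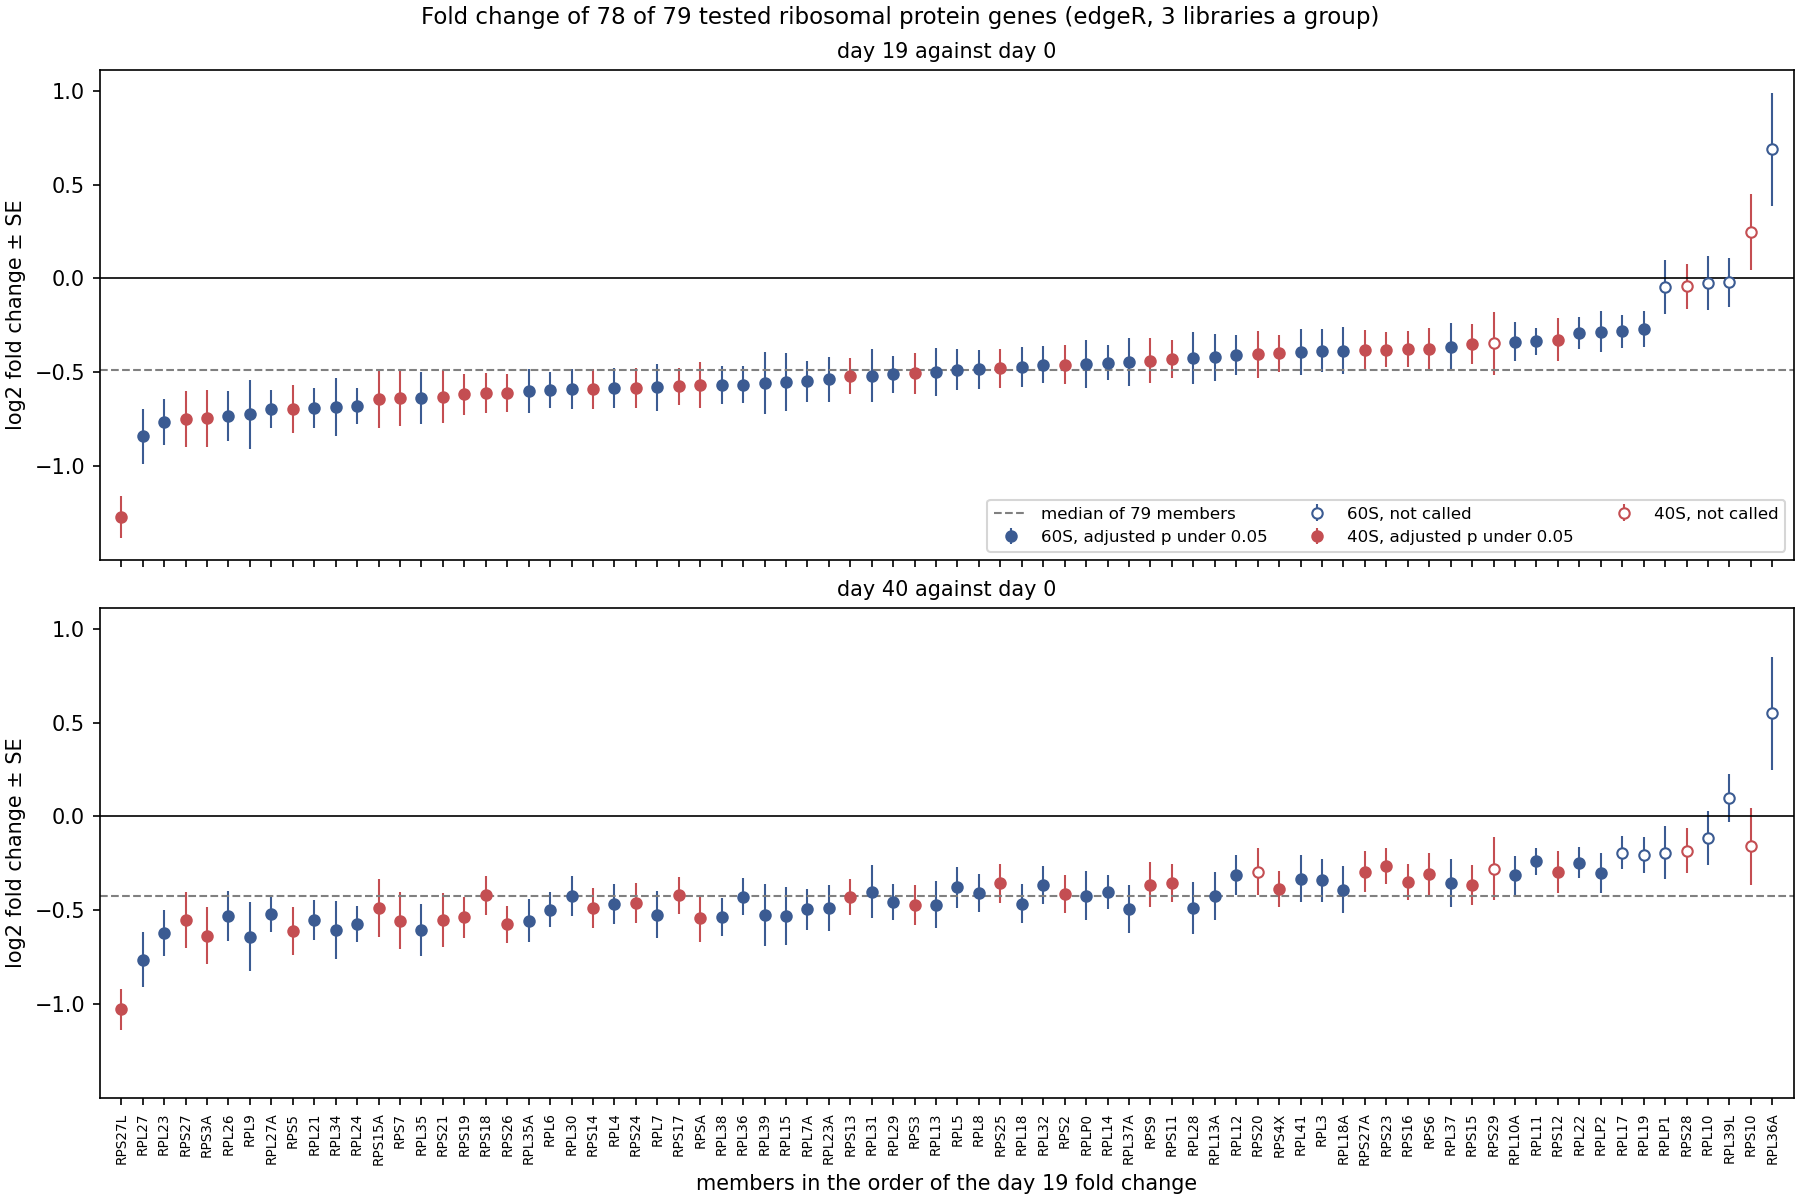
Log2 fold change (points) and its SE (bars) of 78 of the 79 tested members against culture, at day 19 (top) and day 40 (bottom), in the order of day 19; filled points passed an adjusted p of 0.05, blue is the large and red the small subunit, and the dashed line is the median of all 79, -0.49 and -0.42. RPS27L stands alone at the low end in both panels, and RPL36A has the highest value with the widest error.

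The titles hold dates but name no period, and the labels do not say what the dates mark. By these dates the libraries were grouped into sampling periods, and each femur library was set against the culture library of its own period. The day 40 libraries of periods 1 and 2 date from only 11 and 26 days after that culture. In period 1 the day 19 library dates from 18 days after it, later than the day 40 library. The median log2 change over the 79 members was -0.29, -0.79 and -0.34 in periods 1, 2 and 3 at day 19, and -0.32, -0.64 and -0.27 at day 40. Of the 79 values, 72, 77 and 73 were below 0 at day 19 and 74, 78 and 73 at day 40. These are signs from 1 library against 1, with no test, and the shares of all genes below 0 were not computed. Members that fell more in one period tended to do so in the others. Over the 74 members at 100 CPM or more, Pearson's r between periods was 0.59, 0.71 and 0.77 at day 19 and 0.47, 0.53 and 0.61 at day 40, as a description over genes that share libraries. Among the same 74 members the fold change at day 19 had r of -0.02 with coding length, 0.07 with the log2 level in culture and -0.14 with the number of pseudogenes.

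**Figure D3:**
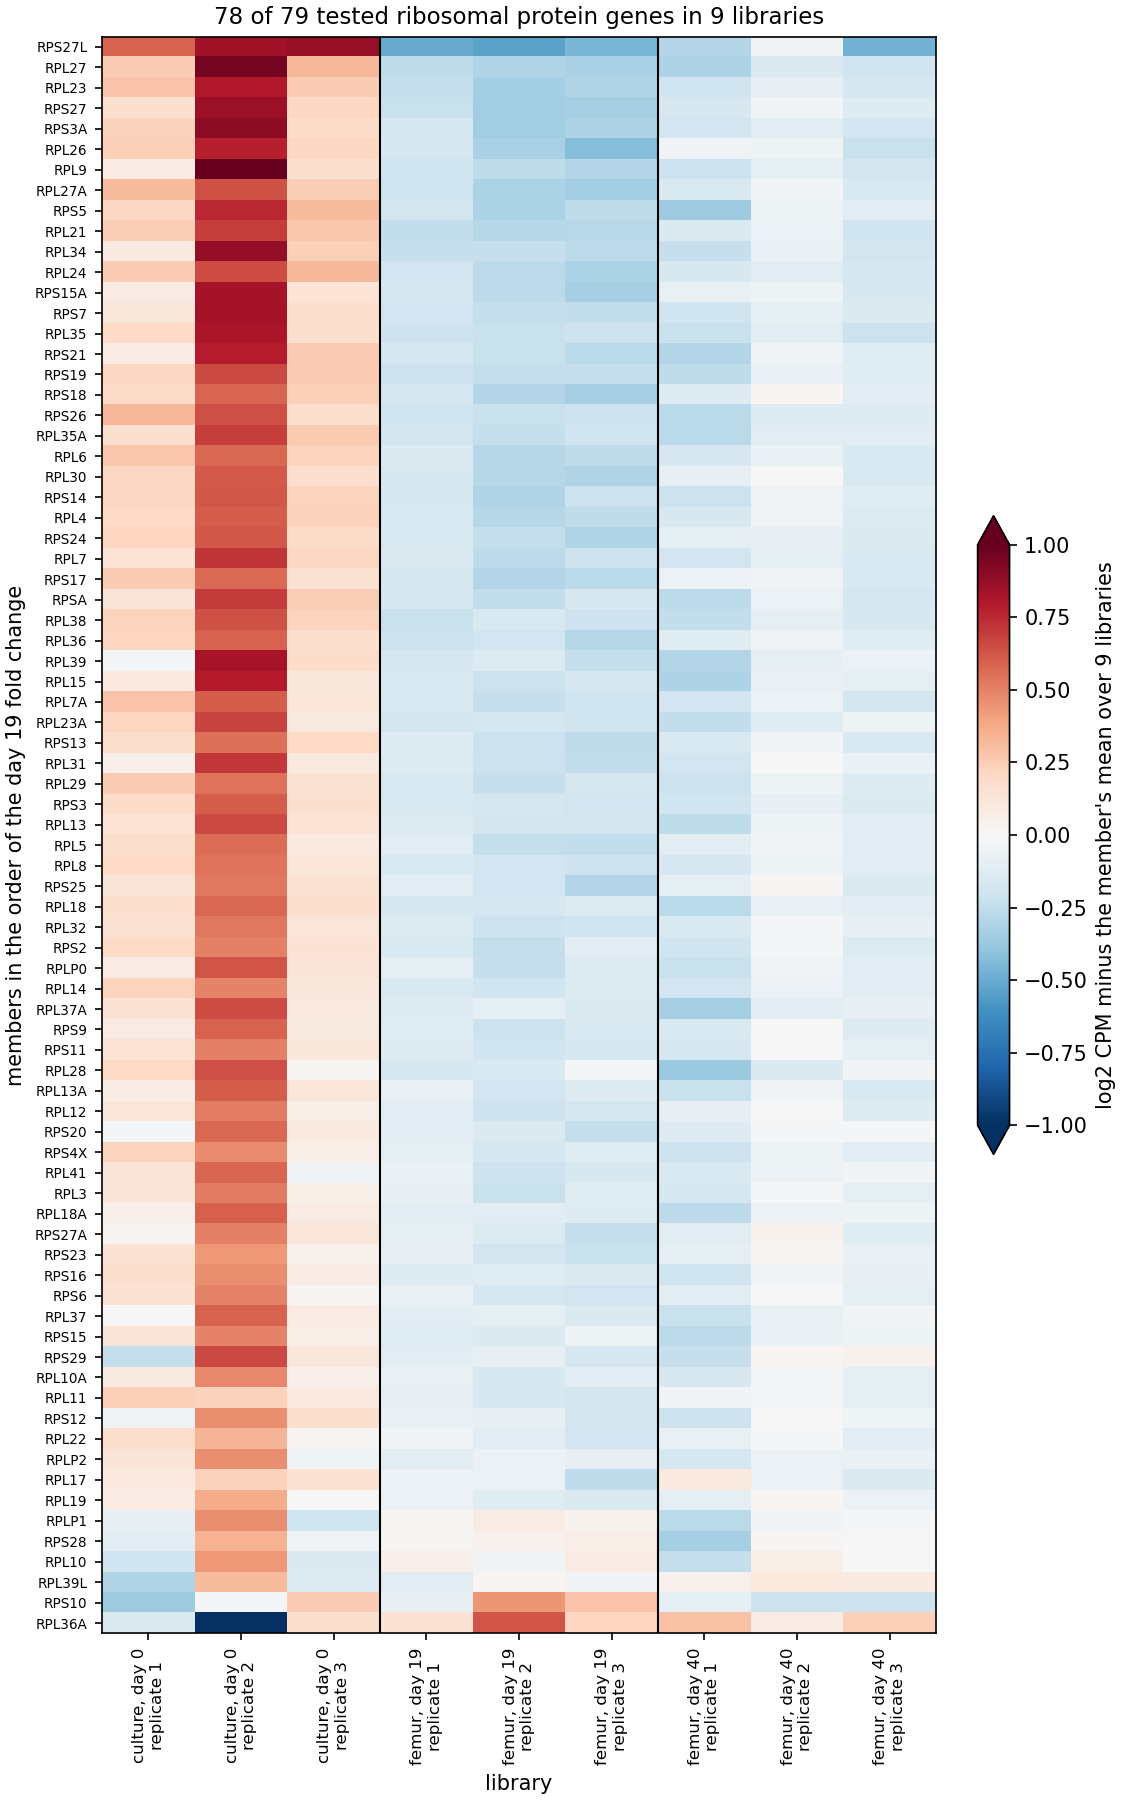
Log2 CPM of 78 of the 79 tested members (rows, in the order of the day 19 fold change) in each of the 9 libraries (columns), minus the member's own mean over the libraries; red is higher and blue lower, with colours saturated at 1 and -1. The column of culture replicate 2 is the darkest red, the femur columns are blue for most rows, and RPS10 and RPL36A at the bottom go against the rest.

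The stalk of the large subunit is built on RPLP0, which carries dimers of RPLP1 and RPLP2, the acidic proteins that bind elongation factors. RPLP0 had 3010.1, 4413 and 3109 CPM in the culture libraries, 2665, 2426 and 2588 CPM at day 19 and 2444, 2783 and 2639 CPM at day 40. All femur libraries were below all culture libraries, with a log2 fold change of -0.46 ± 0.13 (SE, adjusted p 0.0103) at day 19 and -0.42 ± 0.13 (SE, adjusted p 0.0182) at day 40. Without culture replicate 2 the values were -0.27 and -0.23, and the day 40 call was lost without day 40 replicate 1 (adjusted p 0.0591). RPLP1 had 1467, 2143 and 1357 CPM in the culture libraries, 1570.5, 1644 and 1595 CPM at day 19 and 1290.5, 1523 and 1534 CPM at day 40. Its day 19 libraries lay between culture replicate 2 and the other culture libraries, and the log2 fold change was -0.05 ± 0.14 (SE, adjusted p 0.806) at day 19 and -0.19 ± 0.14 (SE, adjusted p 0.287) at day 40. The sign turned without culture replicate 2 (0.18 and 0.03, not called) and at day 19 with scaling by total counts (0.05). RPLP2 had 1179.8, 1493 and 1047 CPM in the culture libraries, 1003, 1035 and 1018 CPM at day 19 and 955, 1037 and 1030.3 CPM at day 40. Its groups did not overlap, but the gaps were small: the log2 fold change was -0.28 ± 0.11 (SE, adjusted p 0.0433) at day 19 and -0.30 ± 0.11 (SE, adjusted p 0.0380) at day 40, and -0.14 and -0.16 without culture replicate 2, where neither passed (adjusted p 0.104 and 0.0714). At either day the call was lost in 7 of the 9 fits that left out 1 library, with an adjusted p of 0.105 at day 40 without day 40 replicate 1. RPLP1 and RPLP2 have coding sequences of nearly equal length, and the ratio of their CPM was 1.24, 1.44 and 1.30 in culture, 1.57, 1.59 and 1.57 at day 19, and 1.35, 1.47 and 1.49 at day 40. The ratio was thus above every culture library in every day 19 library, as a description with no test.

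RPL5 and RPL11 bind the 5S ribosomal RNA, and outside the ribosome this particle is known to bind MDM2 and so to raise p53. RPL5 had 2041, 2653 and 1934 CPM in the culture libraries, 1679, 1532 and 1522 CPM at day 19 and 1667, 1764 and 1671 CPM at day 40. It fell by 0.49 ± 0.11 (SE, adjusted p 0.00248) on the log2 scale at day 19 and by 0.38 (adjusted p 0.0130) at day 40, where the value was -0.24 without culture replicate 2. RPL11 had 1742, 1734 and 1580.2 CPM in the culture libraries, 1391, 1319.5 and 1297 CPM at day 19 and 1446, 1459 and 1380.2 CPM at day 40. RPL11 was 1 of 4 tested members for which culture replicate 2 was not the highest library, and it fell by 0.34 ± 0.07 (SE, adjusted p 0.00191) at day 19 and by 0.24 (adjusted p 0.0166) at day 40. The day 40 call of RPL11 was lost without culture replicate 1 or day 40 replicate 3 (adjusted p 0.0517 and 0.0774). RPL22, a protein of the large subunit that is dispensable for translation in many cells and is known for its part in lymphocyte development, had 493, 552 and 440.1 CPM in the culture libraries, 429, 403 and 382 CPM at day 19 and 415, 433 and 404 CPM at day 40. Its log2 fold change was -0.29 ± 0.08 (SE, adjusted p 0.0115) at day 19 and -0.25 ± 0.08 (SE, adjusted p 0.0295) at day 40. The calls of RPL22 depended on single libraries: at day 19 on day 19 replicate 3 (adjusted p 0.0583 without it), and at day 40 on culture replicates 1 and 2 and day 40 replicates 1 and 3 (adjusted p 0.0558 to 0.0993).

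RPL3, RPL4 and RPL10 reach into the core of the large subunit: RPL3 and RPL10 lie beside the peptidyl transferase centre, and RPL4 lines the exit tunnel. RPL3 had 4123, 5405 and 3933 CPM in the culture libraries, 3573, 3248 and 3484 CPM at day 19 and 3354, 3751 and 3530.4 CPM at day 40. Every femur library was below every culture library, with a log2 fold change of -0.39 ± 0.11 (SE, adjusted p 0.0131) at day 19 and -0.34 ± 0.11 (SE, adjusted p 0.0281) at day 40. With culture replicate 2 left out these were -0.24 and -0.20, both still called. The call was lost without day 19 replicate 2 at day 19 (adjusted p 0.0603) and without day 40 replicate 1 or 3 at day 40 (adjusted p 0.0799 and 0.0752). RPL4 had 3811, 5041 and 3887 CPM in the culture libraries, 2988, 2719 and 2789 CPM at day 19 and 2967, 3233 and 3022 CPM at day 40. It fell more than RPL3, by 0.58 ± 0.11 (SE, adjusted p 0.000669) at day 19 and by 0.47 (adjusted p 0.00377) at day 40, though the difference between these members was not tested. RPL10 had 1034, 1602 and 1072 CPM in the culture libraries, 1226, 1162 and 1256 CPM at day 19 and 1004, 1238 and 1180.5 CPM at day 40. All day 19 libraries of RPL10 were above culture replicates 1 and 3 and below culture replicate 2, and the log2 fold change was -0.02 ± 0.14 (SE, adjusted p 0.899) at day 19 and -0.12 ± 0.14 (SE, adjusted p 0.534) at day 40. Its sign turned without culture replicate 2 (0.20 and 0.10, not called) and at day 19 with scaling by total counts (0.07). RPL41, the shortest ribosomal protein, had 535, 732 and 478 CPM in the culture libraries, 469, 424 and 438 CPM at day 19 and 439.9, 469 and 479 CPM at day 40. Its log2 fold change was -0.39 ± 0.12 (SE, adjusted p 0.0187) at day 19 and -0.33 ± 0.12 (SE, adjusted p 0.0447) at day 40. Without culture replicate 2 it was -0.20 and -0.14. The day 40 call was lost in 7 of the 9 fits that left out 1 library (adjusted p up to 0.114), and the day 19 call without day 19 replicate 2 or 3 (adjusted p 0.0709 and 0.0548).

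On the small subunit, RPS6 is the substrate of the S6 kinases that mTOR activates. RPS6 had 3124, 3995 and 2856 CPM in the culture libraries, 2691, 2509.9 and 2482 CPM at day 19 and 2609, 2823 and 2637 CPM at day 40. The groups did not overlap, with a log2 fold change of -0.38 ± 0.11 (SE, adjusted p 0.0130) at day 19 and -0.31 ± 0.11 (SE, adjusted p 0.0399) at day 40. Without culture replicate 2 it was -0.23 and -0.16 (adjusted p 0.0124 and 0.0649), and leaving out day 19 replicate 3 lost the call at day 19 (adjusted p 0.0508) and any of day 19 replicates 1 to 3 or day 40 replicates 1 and 3 that at day 40 (adjusted p 0.0569 to 0.108). RPSA, at the platform and also known as the laminin receptor precursor, had 1526, 2265 and 1652 CPM in the culture libraries, 1248, 1177 and 1249 CPM at day 19 and 1163, 1339 and 1238 CPM at day 40. It was lower in all femur libraries (-0.57 ± 0.12 SE, adjusted p 0.00225 at day 19, -0.54 ± 0.12 SE, adjusted p 0.00375 at day 40). RPS3, which lines the entry of the mRNA, had 2502, 3339 and 2457 CPM in the culture libraries, 1976, 1944 and 1929 CPM at day 19 and 1917, 2078 and 1989 CPM at day 40 and log2 fold changes of -0.50 ± 0.11 (SE, adjusted p 0.00191) at day 19 and -0.47 ± 0.11 (SE, adjusted p 0.00367) at day 40. RPS4X, the X-linked copy of a pair with a Y-linked gene, had 1729, 2051 and 1551 CPM in culture, 1379, 1308 and 1357 CPM at day 19 and 1279, 1431 and 1368 CPM at day 40, with log2 fold changes of -0.40 (adjusted p 0.00425) and -0.39 (adjusted p 0.00622). The mRNAs of these small-subunit proteins all fell, and in each of them culture replicate 2 was the highest library.

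RPS19, RPS26, RPS14 and RPS20 are small-subunit members. Loss of a copy of RPS19 or RPS26 is a cause of Diamond-Blackfan anaemia, and RPS14 lies in the segment deleted in the 5q- syndrome. RPS19 had 1218, 1669.9 and 1257 CPM in the culture libraries, 916, 893 and 897 CPM at day 19 and 883, 1004 and 971 CPM at day 40. It fell by 0.62 ± 0.11 (SE, adjusted p 0.000502) at day 19 and by 0.54 (adjusted p 0.00171) at day 40, with no overlap between groups. RPS26 had 493, 612 and 443 CPM in the culture libraries, 340.2, 335 and 339 CPM at day 19 and 324, 358 and 358 CPM at day 40, and the log2 fold changes were -0.61 ± 0.10 (SE, adjusted p 0.000299) and -0.57 ± 0.10 (SE, adjusted p 0.000627). RPS14 had 1211, 1619 and 1226 CPM in culture, 941, 854 and 905 CPM at day 19 and 905, 1027 and 965 CPM at day 40. Its log2 fold change was -0.59 ± 0.11 (SE, adjusted p 0.000634) at day 19 and -0.49 ± 0.11 (SE, adjusted p 0.00289) at day 40. RPS20 fell at day 19 (-0.40 ± 0.12 SE, adjusted p 0.0160; -0.21 without culture replicate 2; not called without day 19 replicate 3, adjusted p 0.0620) and was not called at day 40 (-0.29 ± 0.12 SE, adjusted p 0.0696). Without culture replicate 1 or 3 it was called at day 40 (-0.41 and -0.36, adjusted p 0.0186 and 0.0464). RPS25, which some viral RNAs need for internal initiation, fell by 0.48 ± 0.10 (SE, adjusted p 0.00203) at day 19 and by 0.36 (adjusted p 0.0137) at day 40, the latter -0.23 without culture replicate 2 and not called without day 40 replicate 3 (adjusted p 0.0567).

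The members with the largest falls at day 19 were RPS27L, RPL27, RPL23, RPS27 and RPS3A, and at day 40 RPS27L, RPL27, RPL9, RPS3A and RPL23. RPS27L, a copy of RPS27 that is known as a p53 target, had 45.2, 53.6 and 54.9 CPM in the culture libraries, 21.2, 20.7 and 21.9 CPM at day 19 and 24.5, 29.3 and 21.5 CPM at day 40. Every femur library was far below every culture library, with a log2 fold change of -1.27 ± 0.11 (SE, adjusted p 1.90e-06) at day 19 and -1.03 ± 0.11 (SE, adjusted p 1.62e-05) at day 40, and it was the only one of the 79 tested members that fell by 2-fold or more. RPS27 had 1124, 1821 and 1161 CPM in the culture libraries, 861, 788 and 799 CPM at day 19 and 899, 987 and 919 CPM at day 40, with log2 fold changes of -0.75 ± 0.15 (SE, adjusted p 0.00116) and -0.55 ± 0.15 (SE, adjusted p 0.00935) (-0.49 and -0.30 without culture replicate 2). The coding sequences of RPS27L and RPS27 are of equal length, and RPS27L had 4.02%, 2.95% and 4.73% of the CPM of RPS27 in culture, 2.47%, 2.63% and 2.74% at day 19, and 2.73%, 2.97% and 2.34% at day 40. Culture replicate 2 thus lay among the femur libraries in this ratio. RPL27, which lies on the back of the large subunit, had 896, 1452 and 938 CPM in the culture libraries, 628, 608 and 599 CPM at day 19 and 605, 679 and 652 CPM at day 40. Its log2 fold change was -0.84 ± 0.15 (SE, adjusted p 0.000448) at day 19 and -0.76 ± 0.15 (SE, adjusted p 0.00118) at day 40. RPL23, RPS3A and RPL9 had log2 fold changes of -0.76, -0.74 and -0.72 at day 19 (adjusted p 0.000258, 0.00137 and 0.00573) and -0.62, -0.64 and -0.64 at day 40 (adjusted p 0.00146, 0.00467 and 0.0134). Of these, RPS3A and RPL9 rested most on culture replicate 2, without which they were -0.49 and -0.38 at day 19 and -0.38 and -0.30 at day 40, still called.

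**Figure D4:**
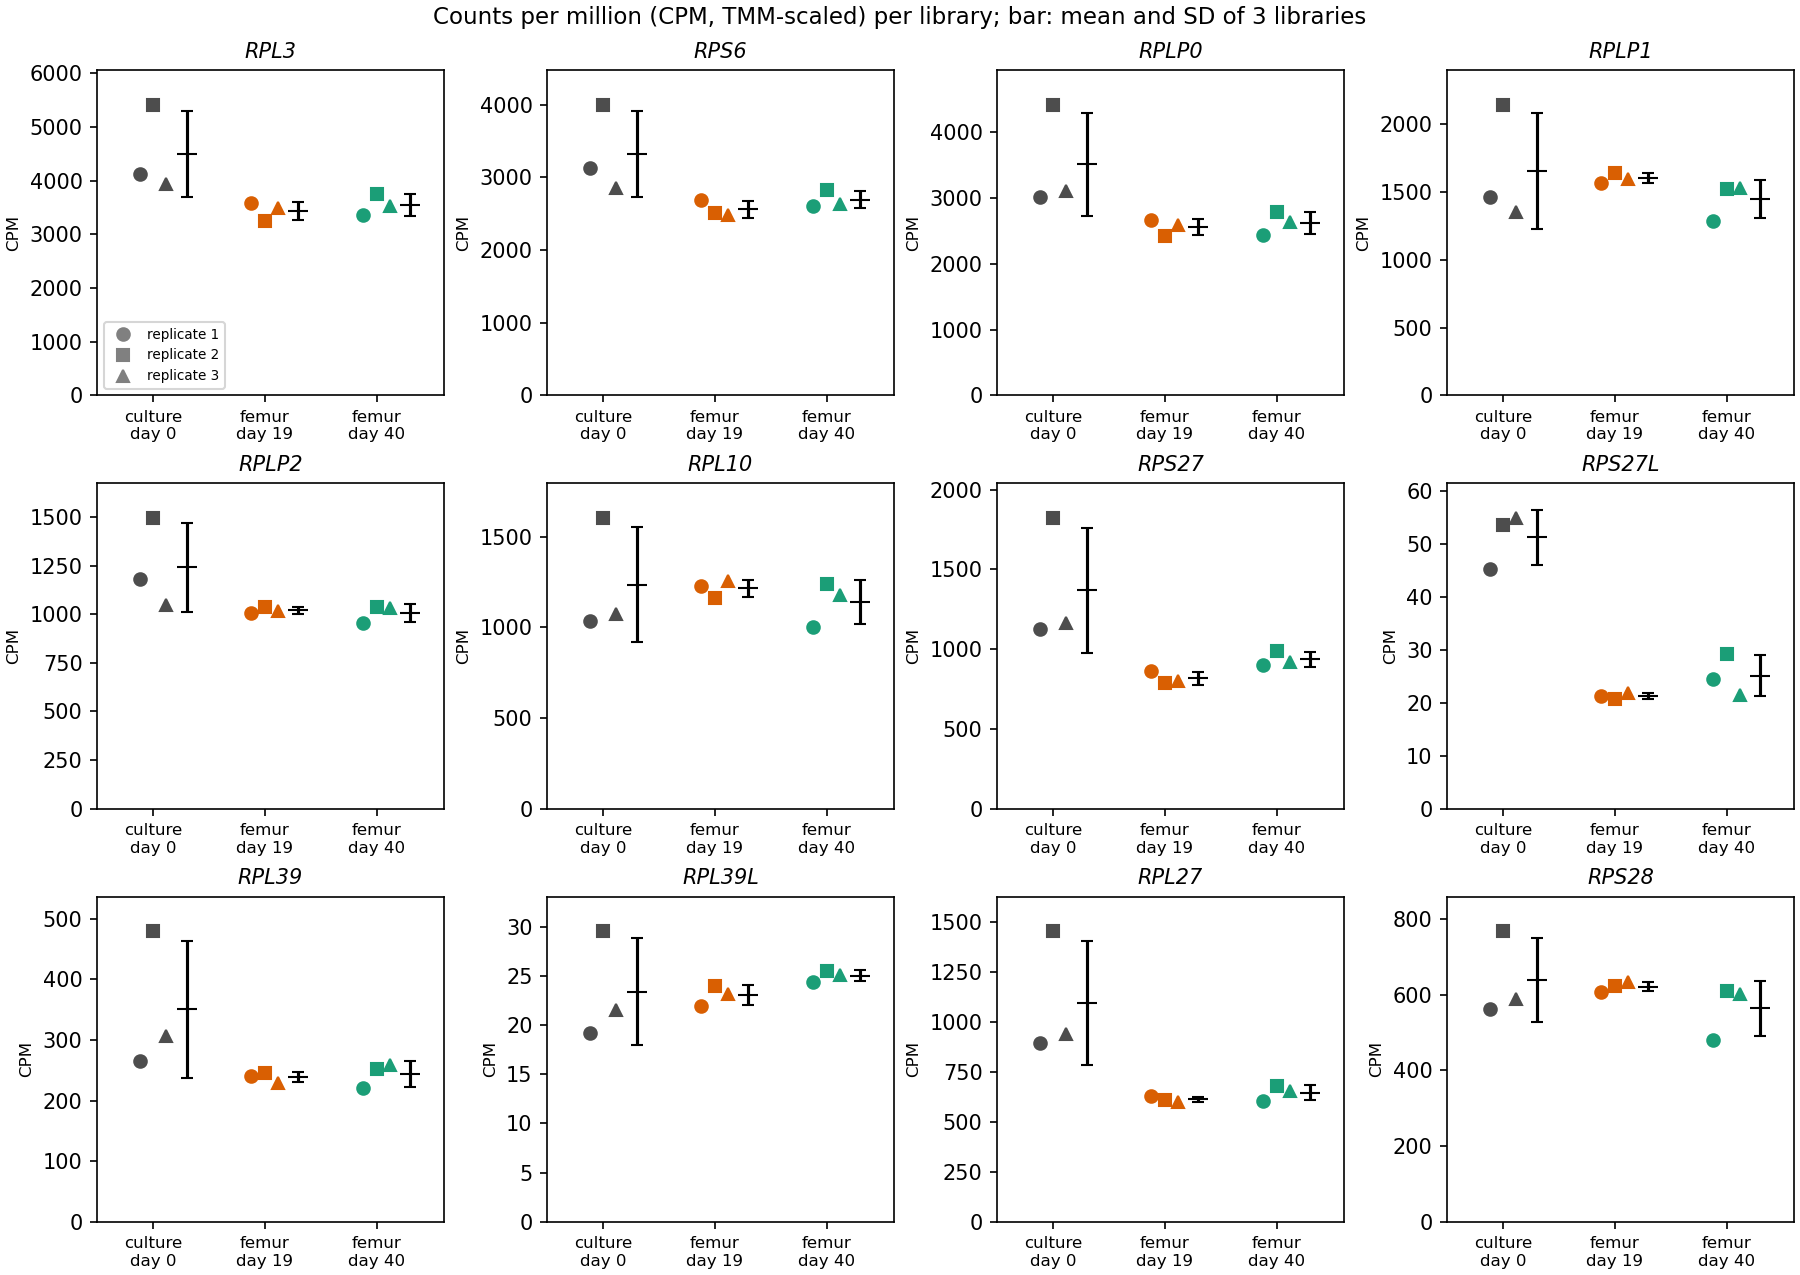
CPM of 12 members in each of the 9 libraries, with bars for the mean and SD of 3 libraries; each panel has its own axis from 0. RPS27L falls from 45.2 to 54.9 CPM in culture to 20.7 to 21.9 CPM at day 19, while the day 19 libraries of RPLP1, RPL10, RPS28 and RPL39L lie within the range of culture.

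RPL10, RPLP1, RPS28 and RPL39L had the values nearest to 0 at day 19, and RPS10 and RPL36A were the only tested members above 0. RPL39L, a copy of RPL39 at the exit tunnel that is best known from male germ cells and cancer lines, had 19.2, 29.5 and 21.5 CPM in the culture libraries, 22.0, 24.0 and 23.2 CPM at day 19 and 24.4, 25.5 and 25.1 CPM at day 40. Its log2 fold change was -0.02 ± 0.13 (SE, adjusted p 0.905) at day 19 and 0.10 ± 0.13 (SE, adjusted p 0.560) at day 40, and the day 19 value was 0.17 without culture replicate 2 and 0.07 with scaling by total counts. RPL39 itself had 266, 479 and 307 CPM in the culture libraries, 240.5, 245 and 229 CPM at day 19 and 220.0, 253 and 259 CPM at day 40 and fell (-0.56 ± 0.16 SE, adjusted p 0.0128 at day 19 and -0.52 ± 0.16 SE, adjusted p 0.0205 at day 40). The values of RPL39 were -0.27 and -0.24 without culture replicate 2, and the day 40 call was lost without day 40 replicate 1 (adjusted p 0.0694). With coding sequences of equal length, RPL39L had 6.16% to 7.23% of the CPM of RPL39 in the culture libraries, 9.13% to 10.1% at day 19 and 9.70% to 11.1% at day 40, so that all femur libraries were above all culture libraries. RPS28, at the mRNA exit of the small subunit, had 562, 768 and 589.9 CPM in the culture libraries, 608, 622 and 633 CPM at day 19 and 480.4, 609.8 and 603 CPM at day 40. Its day 19 libraries lay within the range of culture, and the log2 fold change was -0.04 ± 0.12 (SE, adjusted p 0.784) at day 19 and -0.18 ± 0.12 (SE, adjusted p 0.224) at day 40. At day 19 it was 0.10 without culture replicate 2 and 0.05 with scaling by total counts, again not called. RPS29, a zinc-finger protein of the small subunit, had 232, 433 and 297 CPM in the culture libraries, 254, 258 and 244 CPM at day 19 and 233, 278 and 282 CPM at day 40 and was not called (-0.35 ± 0.17 SE, adjusted p 0.0996 and -0.28 ± 0.17 SE, adjusted p 0.191). Without culture replicate 1 it was called lower at both days (-0.53 and -0.46, adjusted p 0.00747 and 0.0180). RPL36A had 12.5, 4.55 and 15.5 CPM in the culture libraries, 15.3, 21.4 and 16.1 CPM at day 19 and 17.0, 14.6 and 16.3 CPM at day 40. Culture replicate 2 was its lowest library, the reverse of most members, and the log2 fold change was 0.69 ± 0.30 (SE, adjusted p 0.0729) at day 19 and 0.55 ± 0.30 (SE, adjusted p 0.154) at day 40. Without culture replicate 3 it was called higher (1.03 and 0.90, adjusted p 0.0155 and 0.0335). RPS10 had 2.97, 3.78 and 4.53 CPM in the culture libraries, 3.60, 5.16 and 4.65 CPM at day 19 and 3.55, 3.28 and 3.27 CPM at day 40, with log2 fold changes of 0.25 ± 0.20 (SE, adjusted p 0.321) and -0.16 ± 0.20 (SE, adjusted p 0.542). At such levels RPL36A and RPS10 rest on few reads, and their shared exons with readthrough genes were named above.

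To ask which members moved apart from the family, each gene was tested against the summed counts of all 81 members in place of the library size. Since that sum itself fell, 50.2% of all genes were called higher and 6.30% lower by this measure at day 19. Among members, 6 were lower than the family total at day 19 (RPL23, RPL27, RPL27A, RPS27, RPS27L and RPS3A) and 7 were higher (RPL10, RPL19, RPL36A, RPL39L, RPLP1, RPS10 and RPS28). As shares of the 79 tested, the 6 were close to the share of all genes lower, and the 7 were well below the share higher. The largest departure downwards was RPS27L (-0.81 ± 0.15 SE, adjusted p 0.000479), followed by RPL27 (-0.34 ± 0.09 SE, adjusted p 0.00720) and RPL23 (-0.28 ± 0.08 SE, adjusted p 0.00980). RPL10, RPLP1, RPL39L and RPS28 were above the family total by similar amounts, 0.47 ± 0.09, 0.45 ± 0.09, 0.46 ± 0.12 and 0.44 ± 0.10 (SE, adjusted p 0.000827, 0.00101, 0.00527 and 0.00233). Their own log2 fold changes at day 19 were -0.02, -0.05, -0.02 and -0.04, none called, so they did not rise but stood above a total that fell. RPL36A and RPS10 had larger values with larger errors (1.08 ± 0.37 SE, adjusted p 0.0234, and 0.70 ± 0.24 SE, adjusted p 0.0234). At day 40, where 3.90% of all genes were lower and 44.0% higher, RPL27 (-0.33 ± 0.09 SE, adjusted p 0.0119) and RPS27L (-0.63 ± 0.15 SE, adjusted p 0.00326) were lower than the family total. RPL10 (0.31 ± 0.09 SE, adjusted p 0.0125), RPL39L (0.52 ± 0.12 SE, adjusted p 0.00325), RPL19 and RPLP1 were higher. In either direction the share of tested members was below that of all genes at day 40. RPL27, RPS27L, RPL10, RPL39L, RPLP1 and RPS28 kept their day 19 calls in all 13 other settings, and RPL27, RPS27L and RPL39L did so at day 40. The counts were less steady. Leaving out culture replicate 2, 25 members departed at day 19 and 13 at day 40, while without day 19 replicate 2 or 3 the day 19 count was 7 or 8, and without day 40 replicate 2 or 3 the day 40 count was 3. The shares of all genes called in these fits were not recorded, so these counts cannot be set against them. RPS27 lost the day 19 call without any 1 of day 19 replicates 1 to 3 or day 40 replicates 2 and 3 (adjusted p 0.0547 to 0.103). RPS3A lost it without any 1 of the 6 femur libraries (adjusted p 0.0510 to 0.123). RPS10 lost it without culture replicate 1 or 2 or day 19 replicate 2 or 3 (adjusted p 0.0637 to 0.104), and RPL36A did without day 19 replicate 2 (adjusted p 0.0872; 0.64 without culture replicate 2). At day 40 RPLP1 lost its call in 8 of the 9 fits without 1 library (adjusted p up to 0.166). RPL10 lost it without day 40 replicate 2 or 3 (adjusted p 0.0516 and 0.0583). RPL19 lost its call in 10 of the 13 other settings at either day, 7 of them with 1 library left out. RPL27A lost its day 19 call in 8 of the 13.

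**Figure D5:**
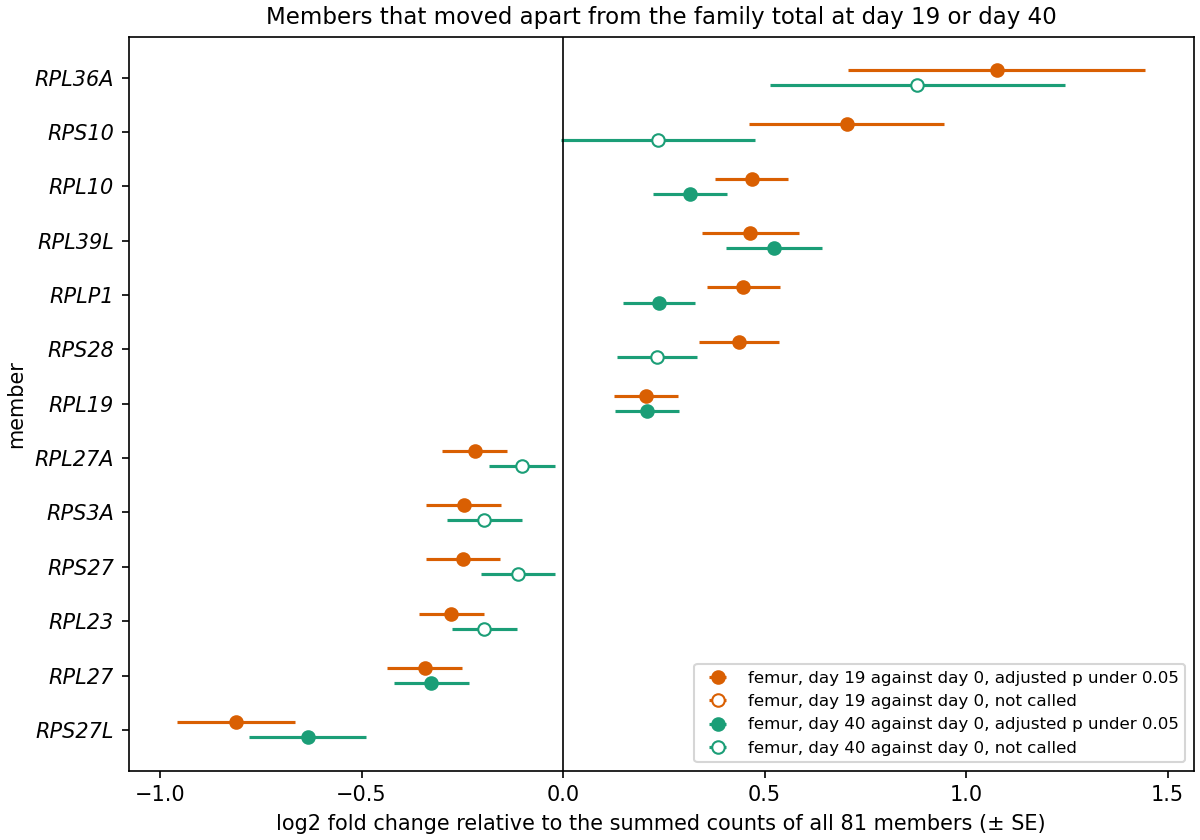
Log2 fold change relative to the summed counts of the 81 members, with its SE, of the 13 members called at either day; orange is day 19 and green is day 40 against culture, and filled points passed an adjusted p of 0.05. RPS27L lies lowest at both days (-0.81 and -0.63), and RPL36A and RPS10 have the widest bars.

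Between day 40 and day 19 no member was called in either direction with edgeR, DESeq2 or limma voom, and none had an unadjusted edgeR p under 0.05. Of all genes, 3.23% were called higher and 1.45% lower. The median log2 difference over the 79 members was 0.07, day 40 being the higher, and the smallest adjusted p was 0.31. In 12 members all day 40 libraries lay above all day 19 libraries (14.0% of all genes), and in RPLP1 and RPS10 all lay below (12.6% of all genes).

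The fold changes were also set against the TOP tracts shown above. Of the 46 members with a tract at the start, 42 were lower at day 19 with a median log2 fold change of -0.50, and of the 17 tested members of the table without one, 15 were lower with a median of -0.46. At day 40 the counts were 42 of 46 (median -0.44) and 13 of 17 (median -0.39). The 6 tested members without a tract within 10 bases of any listed start were RPL6, RPL17, RPL27, RPS4X, RPS27L and RPS29, and their log2 fold changes at day 19 ran from -1.27 (RPS27L) to -0.28 (RPL17). They thus hold the member that fell most as well as one that was not called. RPL27 is among them only by the limit of 10 bases, since a run led by a C begins just beyond it. RPLP1 and RPL10, which were not called, have tracts of 11 and 12 bases. The difference between members with and without a tract was not tested.

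Other genes of the ribosome and of translation were read from lists. Beside these, 26.5% of all genes tested were called lower and 26.3% higher at day 19, and 23.3% either way at day 40. Of 7 ribosomal genes whose symbols fall outside the rule, 6 were lower at both days, with a median of -0.51 at day 19 and -0.44 at day 40. RPL26L1 (-0.83 ± 0.11 SE, adjusted p 4.87e-05 at day 19), RPL36AL (-0.66 ± 0.10 SE, adjusted p 0.000163) and RPL7L1 (-0.40 ± 0.06 SE, adjusted p 0.000220) had the smallest p, and FAU, which makes RPS30 as a fusion with a ubiquitin-like sequence, was also lower (-0.54). RACK1, a scaffold on the small subunit, was not called (-0.24 ± 0.10 SE, adjusted p 0.0631). Of 21 tested translation factors and other genes known for TOP mRNAs, 17 were lower and 2 higher at day 19, and 16 and 2 at day 40, with medians of -0.39 and -0.33. EIF4B (-0.67 ± 0.08 SE, adjusted p 3.32e-05), EIF3I (-0.58 ± 0.07 SE, adjusted p 3.49e-05) and NAP1L1 (-0.60 ± 0.08 SE, adjusted p 7.68e-05) had the smallest p. EEF1A1, the elongation factor that brings in aminoacyl-tRNA, had 10901, 15577 and 10613 CPM in the culture libraries, 9641, 8413 and 9121 CPM at day 19 and 8304, 9647 and 9039 CPM at day 40, with -0.45 ± 0.14 (SE, adjusted p 0.0165) at day 19. The exceptions, named after their values were seen, were EEF1D (0.58 ± 0.08 SE, adjusted p 9.65e-05) and the helicase EIF4A2 (0.58 ± 0.09 SE, adjusted p 0.000162), which were higher at both days. EEF1G had 0 counts in all 9 libraries, which allows up to 3 counts in each. How reads in overlapping genes were assigned is not given in the sources used here. Whether this 0 reflects expression or the counting was not tested. A tract at the start was found in 12 of the 14 genes of this list in the table.

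Genes that host small nucleolar RNAs, several of which also make TOP RNAs that are not translated into a stable protein, were called in both directions. Of 14, 1 was lower and 7 were higher at day 19 (26.5% and 26.3% of all genes), and 1 and 6 at day 40 (23.3% of all genes either way). Their medians were 0.30 and 0.10. SNHG12 had 42.5, 48.4 and 57.7 CPM in the culture libraries, 101, 100.2 and 105 CPM at day 19 and 88.4, 83.9 and 89.0 CPM at day 40 (1.04 ± 0.09 SE, adjusted p 1.97e-06 at day 19), and SNHG1 (1.01 ± 0.09 SE, adjusted p 2.57e-06) and ZFAS1 (0.75 ± 0.10 SE, adjusted p 5.49e-05) also had all femur libraries above all culture libraries. SNHG5 was lower (-0.72 ± 0.14 SE, adjusted p 0.00108). Of 14 chaperones and importins that escort ribosomal proteins, 9 were lower and none higher at day 19, and 8 and none at day 40, with medians of -0.25 and -0.23. PDCD2, a chaperone of RPS2, fell by 0.58 ± 0.07 (SE, adjusted p 4.39e-05), AAMP, the relative of a yeast chaperone of RPL10, by 0.38 and GRWD1, a chaperone of RPL3, by 0.30.

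Of 16 regulators of TOP mRNAs, 3 were lower and 6 higher at day 19, and 4 and 1 at day 40. Of all genes, 26.5% were lower and 26.3% higher at day 19, and 23.3% either way at day 40. DEPTOR, a subunit of mTOR complexes known as an inhibitor of their kinase, had means of 56.01 ± 6.29 CPM in culture, 5.08 ± 1.38 CPM at day 19 and 4.65 ± 1.17 CPM at day 40 (SD, n = 3). All femur libraries were below all culture libraries (-3.46 ± 0.19 SE, adjusted p 3.57e-08 at day 19 and -3.60 ± 0.19 SE, adjusted p 5.92e-08 at day 40). The cap-binding protein EIF4E was lower (-0.48 ± 0.07 SE, adjusted p 0.000106) and ZNF598, which marks collided ribosomes, was higher (0.45 ± 0.06 SE, adjusted p 9.02e-05). LARP1 (-0.11 ± 0.08 SE, adjusted p 0.304) and the S6 kinase RPS6KB1 (-0.02 ± 0.07 SE, adjusted p 0.802) were not called, and MTOR was higher at day 19 (0.32 ± 0.09 SE, adjusted p 0.0133) but not called at day 40. Of 9 tested transcription factors known at ribosomal protein genes, none was lower and 2 were higher at day 19 (TBP, 0.26 ± 0.07 SE, adjusted p 0.00532, and SP1, 0.28 ± 0.08 SE, adjusted p 0.00831), while at day 40, 2 were lower and 1 higher, beside the same shares of all genes. MYC had 411, 433 and 397 CPM in the culture libraries, 385, 316 and 382 CPM at day 19 and 335, 349 and 372 CPM at day 40 and was -0.19 ± 0.08 (SE, adjusted p 0.0634) at day 19 and -0.23 ± 0.08 (SE, adjusted p 0.0347) at day 40.

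Over the 9 libraries the log2 CPM of most members went together. For 69 of the 79 members Pearson's r with the mean of the other members was 0.9 or more, with a median of 0.98, as a description over libraries that differ by group. The family mean was 0.76 above its lowest library in culture replicate 2 and 0.32 and 0.33 in culture replicates 1 and 3. In the femur libraries it was at most 0.15 above. The share of all genes with such an r was not computed. The members least like the rest were RPL36A (-0.93), RPS10 (-0.18), RPL39L (0.33), RPL10 (0.55), RPLP1 (0.61) and RPS28 (0.61). Among genes outside the family and its pseudogenes, the mean of the family was most closely matched by NDUFB9, a subunit of respiratory complex I, FAU, the processed pseudogene BX679664.3 on chromosome 1, DPH5, which makes diphthamide on elongation factor EEF2, and RSL24D1, a factor of large-subunit assembly, with r of 0.995, 0.994, 0.994, 0.993 and 0.993 over 9 libraries. Pseudogenes of the family were left out by symbol alone, and whether BX679664.3 is a copy of a member was not checked.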

How the data were processed

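RNA-seq counts per gene were used for 9 DOHH2 libraries, 3 in each of 3 groups. Per the submitters' processing notes, the tools were FastQC 0.11.5, STAR 2.5.2a, featureCounts 1.4.6 and DESeq2 1.40.1 with build hg38. Each deposited file lists raw read counts by Ensembl gene as whole numbers. Not given in the sources used here were the annotation, the use of strand, and what was done with mouse reads, with reads that match several copies and with overlapping genes. Groups were taken from the sample labels. Gene identifiers were matched to symbols, biotypes and coordinates in GENCODE 29, in which 57980 of 58243 were found and 263 were not. Coding length is that of the principal annotated transcript, without UTRs.

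Counts were filtered with filterByExpr, which left 15163 genes (79 of the 81 members), scaled with TMM and tested with edgeR 4.0.16 (R 4.3.3), quasi-likelihood F-test, with 1 coefficient per group over all 9 libraries and Benjamini-Hochberg adjustment over all genes tested, and called at an adjusted p under 0.05. A second fit used the summed member counts of a library as its size, with no further scaling. The script was tested on simulated data. Shares of counts were compared by exact two-sided permutation over libraries. Correlations between genes used log2 CPM with a prior count of 2. Limits for a count of 0 are 3 counts and cover counting error only. Starts were read from RefSeq promoters of GRCh38.p14. The alternatives were DESeq2 1.42.0, limma voom (limma 3.58.1), other scalings, no filter, only the libraries of the groups compared, the sampling period as a block and each library left out in turn.

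The members, lists and tests were chosen with earlier results of these data known. Named members were those of set roles (stalk, 5S particle, RPS6, peptidyl transferase centre and tunnel, paralogs with an L suffix and their partners, and genes of Diamond-Blackfan anaemia), in each comparison with day 0 the 5 largest and 5 smallest falls, up to 10 members not called, the 5 smallest p relative to the family total, and up to 3 genes with the smallest p in each list. CD79B, PAX5, EEF1A1, EEF1D, EIF4A2, EEF1G, RACK1, FAU, SNHG5, LARP1, RPS6KB1, MTOR and MYC were named in addition, for their known roles or as exceptions, after their values were seen. A few genes are counted in the totals but not reported here by name.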

Additional observations from a re-analysis of the deposited data

How the results depend on the processing

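No called result of those recomputed changed direction under these alternatives, but 8 day 19 or day 40 values of named members that were not called did in some, most often without culture replicate 2 or with scaling by total counts. The count of members lower at day 19 was 61 to 72 with 1 library left out, 67 with scaling by total counts, 70 with only the 6 libraries compared and 72 or 73 with DESeq2, limma voom, TMM outside translation genes and no filter. At day 40 it was 49 to 70 with 1 library left out, 57 with scaling by total counts, 50 with only the 6 libraries compared and 68 to 74 in the others. Of all genes, 22.1% to 26.9% were lower at day 19 and 18.6% to 21.9% at day 40 with 1 library left out. Scaling by total counts gave 21.2% and 17.5%, the 6 libraries compared gave 26.7% and 20.1%, and no filter gave 13.7% and 12.1%. Between the femur groups the count was 0 in all of these settings. The share of counts on members at day 19 against day 0 differed by -3.14 to -1.69 percentage points with 1 library left out, and at day 40 by -2.80 to -1.36. The number of members apart from the family total moved most: at day 19 (13 members) it was 8 with no filter and 7 to 25 with 1 library left out, and at day 40 (6 members) 3 to 13 with 1 library left out. The shares of all genes in these fits were not recorded, and the cause was not tested. Of 24 named members called at day 19, 18 kept the call in all 16 alternatives, and of 23 at day 40, 14 did. The deviations of libraries of the same sampling period had correlations of -0.05 to 0.31, and those of different periods -0.20 to 0.09. The labels give no pairing, so the main fit took none and the period served as a block in an alternative. The replicate block by sampling period gave 72 members lower and 1 higher (RPL36A) at day 19, 69 lower at day 40, and 12 and 6 members apart from the family total. With this block 27.3% of all genes were lower at day 19 and 24.2% at day 40. Low counts limit RPL3L, RPS10 and RPL36A.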
